A study of Homo sapiens with 17 samples.

Results

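Doxycycline-induced knockdown of Drosha for 13 d was described in K562, a human erythroleukemia line carrying an inducible short hairpin RNA against Drosha. Small RNA had been sequenced from cells kept for 13 d in 1 µg/mL doxycycline (Dox) and from cells given water in parallel, with 3 replicates in each group. These 6 samples, chosen by their labelled treatment and day, are part of a series of 17. All 6 carried the hairpin construct, so the water samples are uninduced cells of the same line and not cells without a hairpin. The libraries were cut from a gel at 20 to 40 nt, and the labels describe the replicates as independent biological ones of this 1 line.

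Drosha is the nuclear RNase that, with its partner DGCR8, cuts the hairpin out of a primary microRNA transcript. Dicer then removes the loop and leaves a 5p and a 3p arm, of which usually 1 is loaded into an Argonaute protein and finds its targets through the seed. A few hairpins reach Dicer by other routes: mirtrons are short introns, or the ends of introns, freed by the spliceosome, and some hairpins start at a transcription start site and carry the cap. Small nucleolar RNAs (snoRNAs), which guide modification of ribosomal RNA, are trimmed from introns without Drosha.

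The comparison turned on a few groups of mature microRNAs. The first group is shown because its 3p arms end where an intron ends. Capitals mark the last 2 bases, and sequences here and below are those of RefSeq, GRCh38.p14, 5′ to 3′.
hsa-miR-877-3p: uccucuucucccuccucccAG
hsa-miR-1226-3p: ucaccagcccuguguucccuAG
hsa-miR-6798-3p: cuaccccccaucccccuguAG
hsa-miR-6777-3p: uccacucuccuggcccccAG

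The next group is shown because its members share the seed AUUGCAC, marked in capitals as bases 2 to 8, and come from several transcripts.
hsa-miR-25-3p: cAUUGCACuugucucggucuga
hsa-miR-92a-3p: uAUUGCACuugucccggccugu
hsa-miR-92b-3p: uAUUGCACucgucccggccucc
hsa-miR-32-5p: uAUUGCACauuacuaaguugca
hsa-miR-363-3p: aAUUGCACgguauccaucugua

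The last group holds the most abundant arms in water (miR-148a-3p, miR-21-5p and miR-126-3p), an arm that fell and an arm that rose, again with the seed in capitals.
hsa-miR-148a-3p: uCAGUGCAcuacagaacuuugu
hsa-miR-21-5p: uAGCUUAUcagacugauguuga
hsa-miR-126-3p: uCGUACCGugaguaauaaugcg
hsa-miR-7-5p: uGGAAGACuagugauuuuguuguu
hsa-miR-484: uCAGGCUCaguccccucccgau

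Library totals were 44552332, 43102043 and 55436279 reads in Dox replicates 1 to 3, against 48217066, 53846572 and 49540287 in the water replicates. Each deposited table pairs the Dox with the water sample of 1 replicate and lists only alignments that had a read in water, and 77.9% to 81.9% of the listed alignments had no Dox read. A locus is a run of touching alignments of 18 nt or longer on 1 strand, and its reads were summed; loci with few reads therefore lean low in Dox. Dox replicate 3 stood apart in read length. Its reads of 31 to 42 nt had a log2 ratio to water of -3.82, against -0.28 and 0.64 in pairs 1 and 2, and its reads of 18 to 19 nt had 1.75, against 0.17 and 0.26. Reads of 20 to 24 nt together, the size of mature microRNAs, had -0.31, -0.35 and -0.39. Single lengths among them differed between pairs: 20 nt reads had -0.79, 0.21 and 1.39. These reads are not all from microRNAs. An unnamed locus with a main length of 20 nt, chr10:69524343-69524374, held 27.8% of Dox library 3 and 4.02% of water library 3. The ratios by length include this locus, so they are no measure of microRNAs alone, and its part in them was not computed.

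**Figure D1:**
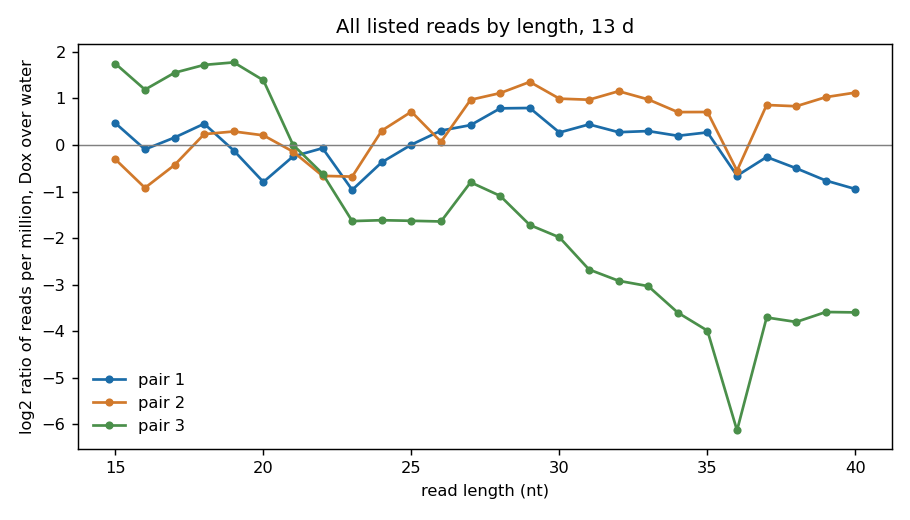
All listed reads by length: the log2 ratio of RPM (reads scaled to the library total), Dox over water (y axis), at each read length in nt (x axis), with a line for each replicate pair. The 3 lines spread at 20 nt (-0.79, 0.21 and 1.39) and at 24 nt (-0.37, 0.31 and -1.62), lie nearest each other at 21 nt, and pair 3 lies far below the others at 31 nt and more.

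The columns of the tables carry no names, and the Dox side was set by reads from the site in DROSHA that the hairpin targets, on chromosome 5 of build hg19. On the plus strand (chr5:31511237-31511267) 236151, 351570 and 474585 reads were counted in the Dox samples, against 231, 215 and 768 in the water samples. On the minus strand (chr5:31511232-31511264) the Dox samples had 108041, 236165 and 1038788 reads, against 738, 846 and 2448 in the water samples. Every sample on the Dox side lay above every water sample. The main lengths were 23 nt on the plus and 22 nt on the minus strand. These reads fixed the direction and give no test of the knockdown, since the level of DROSHA messenger RNA is not measured in small RNA.

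Most microRNAs whose hairpin could be named were less abundant after 13 d of Dox, and a small group was more abundant. Of 206 named hairpins with at least 100 reads over the 3 water samples, 110 fell, 10 rose and 86 did not pass the test (edgeR quasi-likelihood test with the replicate as a block, adjusted p below 0.05 over all 44524 loci with at least 20 reads). Over all 44524 loci, 27.4% were called, 2.9% higher and 24.5% lower. Among the 1992 loci with 1000 reads or more, which are closer to the hairpins in depth, 46.9% were called, 17.3% higher and 29.6% lower. Closer in size as well are the 571 of these with a main length of 20 to 24 nt, neither named nor hairpin-spaced. Of those 571 loci 13.7% were called higher and 41.7% lower, with median log2 ratios of -0.62, -1.26 and -2.03 in pairs 1 to 3. The median log2 ratio of these 206 hairpins was -1.57, -1.62 and -2.79 in pairs 1 to 3, against -1.11, -1.53 and -1.75 over all loci tested and 0.05, -0.14 and -1.68 over those with 1000 reads or more. All 220 named hairpins made up 31.5%, 19.9% and 21.0% of the Dox libraries, against 37.3%, 31.0% and 42.9% of the water libraries.

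The other 14 named hairpins had fewer than 100 water reads and passed the read minimum for naming largely through their Dox reads, so nothing is read from their direction.

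The calls rest on the pairing and on single pairs. Without the replicate block edgeR called 0 of 44524 loci at this threshold, while 12039 had an unadjusted p below 0.05. Without pair 2 it called 29 named hairpins lower and 1 higher, and without pair 3, 55 lower and 7 higher. Every hairpin called with all pairs kept its direction, which is largely fixed in advance because the calls came from these same samples. Scaling by trimmed means (TMM) moved every log2 ratio up by 0.61 and gave 74 named hairpins lower and 13 higher, and 5274 loci lower and 1921 higher, so that 26.7% of all calls were higher in place of 10.6%.

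**Figure D2:**
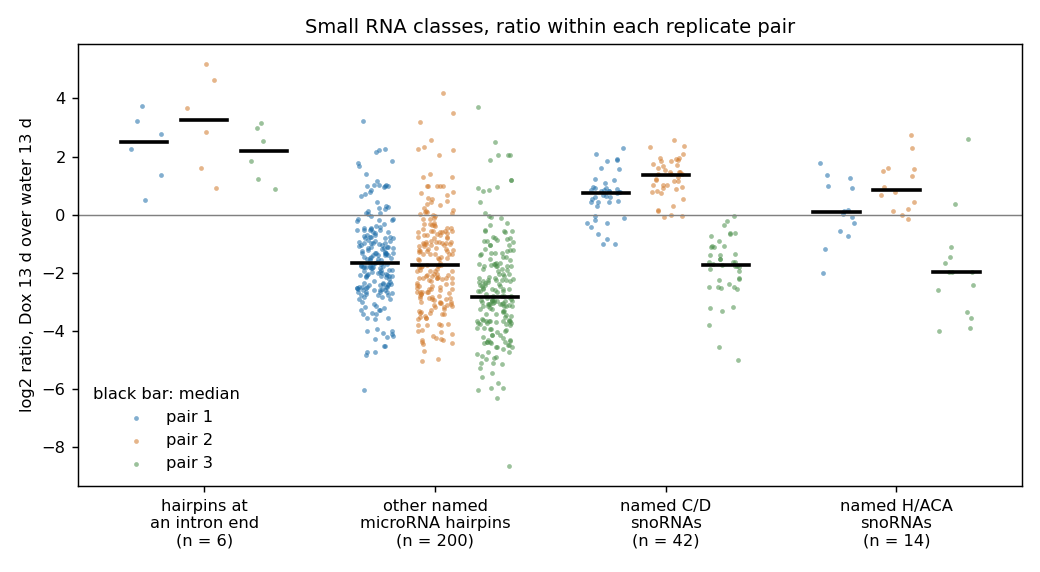
Log2 ratio of Dox over water (y axis) for each named locus, by class and replicate pair, with a black bar at the median; hairpins with under 100 water reads are left out. The medians of the 200 hairpins that are not at an intron end lie below 0 in all 3 pairs and those of the 6 at an intron end above 0; the snoRNA medians lie above 0 in pairs 1 and 2 and below 0 in pair 3.

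The falls took in microRNAs across the whole range of water levels. MIR7-1 (chr9:86584685-86584785, minus strand), whose product miR-7-5p represses receptor tyrosine kinase signalling and which lies in an intron of HNRNPK, had 2525, 3534 and 2209 reads in the Dox samples, against 53214, 69656 and 87603 in the water samples. Its log2 ratio was -4.58 ± 0.79 (SD, n = 3 pairs; edgeR adjusted p = 4.29e-05), and the groups did not overlap. MIR15B (chr3:160122369-160122458), a member of the miR-15/16 family that restrains cell cycle and survival genes, had 2710, 1385 and 1247 reads in Dox and 28868, 29832 and 19560 in water. Its log2 ratio was -3.85 ± 0.47 (SD, n = 3 pairs; edgeR adjusted p = 0.000178), again with every Dox sample below every water sample.

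MIR345 (chr14:100774212-100774291) fell to 71, 52 and 198 reads in the Dox samples, against 1801, 2139 and 6337 in the water samples, a log2 ratio of -4.91 ± 0.33 (SD, n = 3 pairs; edgeR adjusted p = 6.21e-07). MIR642A, in GIPR, fell to 128, 174 and 94 reads in Dox, against 2120, 3074 and 2667 in water, a log2 ratio of -4.24 ± 0.64. In both, no Dox sample reached the level of a water sample. MIR494 was nearly lost, with 0, 1 and 0 reads in Dox and 35, 36 and 179 in water, too few in Dox to give the fall a size.

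MIR210 (chr11:568073-568189, minus strand), which hypoxia and erythroid differentiation are known to induce, had 5435, 1573 and 10152 reads in the Dox samples and 24928, 19334 and 189660 in the water samples. Its log2 ratio was -3.26 ± 1.15 (SD, n = 3 pairs; edgeR adjusted p = 0.00311). The ratios of its pairs ran from -4.39 to -2.08, since water replicate 3 held far more of it than the other water samples. MIR192, a p53-responsive microRNA, MIR185 and MIR423 also fell, with log2 ratios of -2.99 ± 0.86, -2.93 ± 1.23 and -2.62 ± 0.95 (SD, n = 3 pairs; edgeR adjusted p = 0.00679, 0.0064 and 0.0187). Without pair 2, of the hairpins named so far MIR7-1, MIR345, MIR642A and MIR494 passed the threshold, whereas MIR15B (edgeR adjusted p = 0.0629), MIR210 (0.159), MIR192 (0.201), MIR185 (0.119) and MIR423 (0.248) did not; MIR423 also failed under TMM (0.0686) and without pair 1 (0.0825).

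The most abundant microRNAs did not pass the test. MIR148A (chr7:25989503-25989622, minus strand), the most abundant two-arm locus in water, had 8148834, 2498490 and 4856537 reads in the Dox samples and 8580252, 6016197 and 5284772 in the water samples. Its log2 ratio was -0.40 ± 0.50 (SD, n = 3 pairs; edgeR adjusted p = 0.819), it changed sign under TMM scaling (0.21), and the groups overlapped. MIR126, in EGFL7, best known from endothelial and blood stem cells, had 2062722, 1949935 and 2953076 reads in Dox and 1442621, 2285718 and 3392814 in water, with a log2 ratio of 0.12 ± 0.50 (edgeR adjusted p = 0.942) that turned to -0.14 without pair 1.

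MIR21 (chr17:57918597-57918727), which is widely raised in cancers, had 655880, 773139 and 1897400 reads in the Dox samples, against 2270308, 2463260 and 4694679 in the water samples. Every Dox sample lay below every water sample, and the 3 pairs had close log2 ratios of -1.68, -1.35 and -1.47. The edgeR adjusted p was 0.285, so it was not called; by DESeq2's Wald test it was 0.00925, and without pair 3 edgeR gave 0.0435. MIR10A and MIR92A1 were alike: their groups did not overlap, their log2 ratios were -1.60 ± 0.90 and -1.58 ± 1.07, and edgeR did not call them (adjusted p = 0.195 and 0.213) whereas DESeq2 did (0.0266 and 0.0396).

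**Figure D3:**
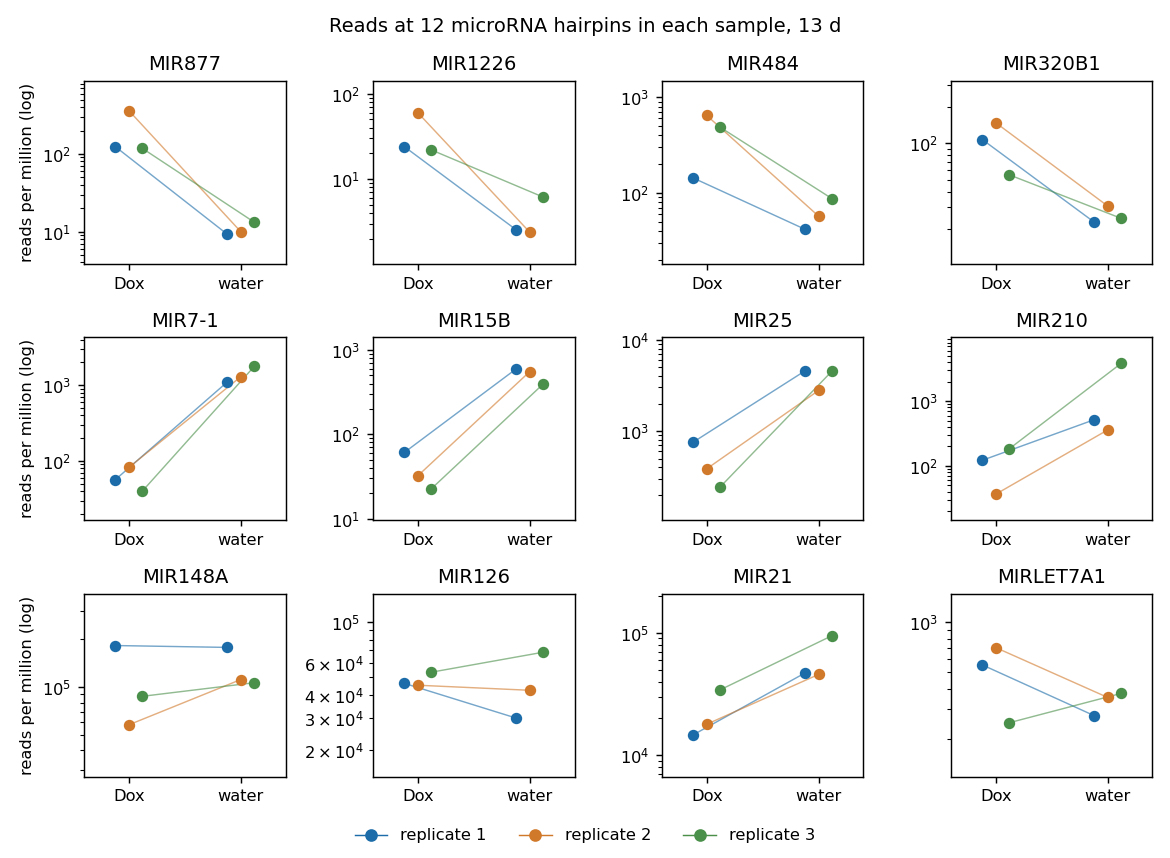
RPM (reads scaled to the library total; y axis, log scale, a scale for each panel) at 12 microRNA hairpins in the Dox and water samples, with a point for each sample and a line joining the samples of 1 replicate. MIR877, MIR1226, MIR484 and MIR320B1 are higher in every Dox sample, MIR7-1, MIR15B, MIR25, MIR210 and MIR21 lower, and MIR148A, MIR126 and MIRLET7A1 overlap between the groups.

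The share of hairpins that fell varied with the level. Leaving aside the hairpins at intron ends and those with fewer than 100 water reads in all, 7 of 17 hairpins with a mean below 100 reads in the water samples fell, 33 of 58 at 100 to 1000 reads, 49 of 67 at 1000 to 10000 reads and 21 of 58 above 10000 reads. The median log2 ratios of these 4 groups were -1.59, -2.26, -2.49 and -1.42. The most abundant hairpins thus had a smaller median fall than those of middle level, in each of the 3 pairs (-1.08, -0.98 and -2.31 above 10000 reads, against -1.99, -2.07 and -3.33 at 1000 to 10000 reads).

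**Figure D4:**
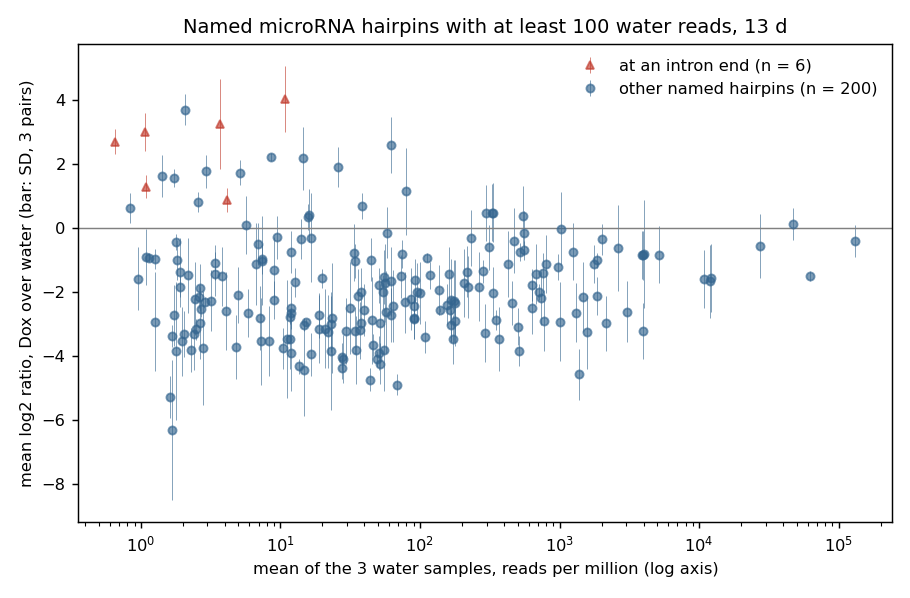
Mean log2 ratio of Dox over water over the 3 pairs, with SD bars (y axis), against the mean RPM of the water samples (x axis, log scale) for the 206 named hairpins with at least 100 water reads. The 6 hairpins at an intron end, drawn as triangles, lie above 0, and the median of the others is lowest at middle levels.

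Hairpins of 1 transcript did not move alike. The miR-17~92 cluster on chromosome 13, from the host gene MIR17HG and known as an oncogenic cluster, gives 6 hairpins, of which 3 fell, 0 rose and 3 did not pass. MIR18A (chr13:92002982-92003103) had 645, 702 and 1843 reads in the Dox samples and 5039, 5607 and 33019 in the water samples, a log2 ratio of -3.28 ± 0.91 (SD, n = 3 pairs; edgeR adjusted p = 0.00102). Its neighbours in the same transcript, MIR17 and MIR20A, had log2 ratios of -0.63 ± 1.36 and -0.81 ± 1.70 and overlapped between the groups (edgeR adjusted p = 0.608 and 0.54). MIR19A and MIR19B1 were called at -2.35 ± 0.68 and -1.84 ± 0.97 (edgeR adjusted p = 0.016 and 0.04996), but both calls were lost without any 1 of the pairs and under TMM, and their groups overlapped because replicate 3 of both groups held many more of these reads. MIR19B2 on the X chromosome, which has the same main mature sequence as MIR19B1 (miR-19b-3p), had a log2 ratio of -1.71 and was not called. The difference between hairpins of the miR-17~92 cluster was not tested.

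The miR-106b~25 cluster in an intron of MCM7, a paralogue of miR-17~92, held 2 hairpins that fell and 1 that did not pass. MIR25 (chr7:99691165-99691301, minus strand) had 33766, 16657 and 13559 reads in the Dox samples, against 220766, 150191 and 225471 in the water samples, with a log2 ratio of -3.22 ± 0.87 (SD, n = 3 pairs; edgeR adjusted p = 0.00561). MIR106B had a log2 ratio of -2.2 ± 0.83 (edgeR adjusted p = 0.027) and MIR93 of -1.44 ± 0.94 (0.154), and neither hairpin's groups overlapped. Without pair 2 the calls of MIR18A (adjusted p = 0.0677), MIR25 (0.171) and MIR106B (0.268) were lost, and that of MIR106B also without pair 1 (0.0599), without pair 3 (0.0644) and under TMM (0.119). Of the 5 named hairpins of the cluster of MIR106A and MIR363 on the X chromosome 0 were called, with log2 ratios from -1.71 to -0.30.

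The group with seed AUUGCAC printed above comes from several transcripts. Its 6 hairpins had mean log2 ratios from -3.22 for MIR25 to -1.37 for MIR92B, all below 0, and 2 of them were called, MIR25 and MIR32. MIR32 had 181, 288 and 3146 reads in Dox and 1121, 2142 and 17622 in water, and its pairs had nearly equal log2 ratios of -2.51, -2.57 and -2.65 (edgeR adjusted p = 0.00592), although its groups overlapped and the call was lost without pair 2 (0.137). The 5 hairpins with the seed AAAGUGC, shared by miR-17-5p, miR-20a-5p, miR-20b-5p, miR-93-5p and miR-106a-5p, had log2 ratios from -1.44 to -0.30, and 0 were called.

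**Figure D5:**
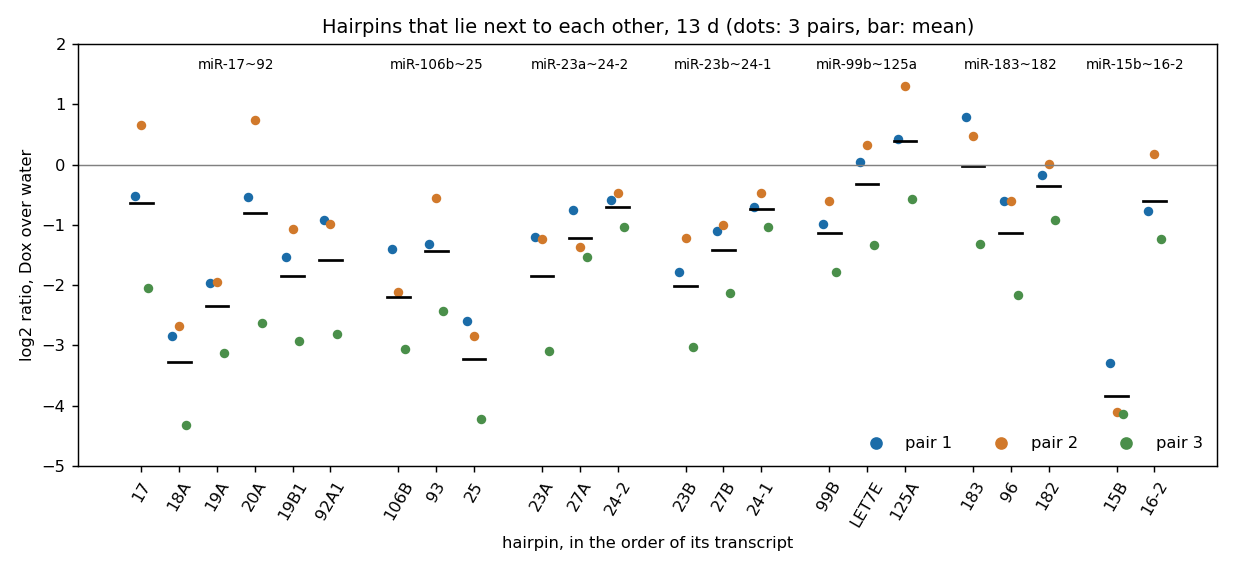
Log2 ratio of Dox over water (y axis) for hairpins that lie next to each other in 1 transcript (x axis, in transcript order), with a dot for each pair and a bar at the mean. Within miR-17~92, 18a and 19a lie well below 17 and 20a, and within miR-15b~16-2, 15b lies below 16-2.

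The counts of other families are set against 53.4% lower among all 206 named hairpins with at least 100 water reads. Among all loci with 1000 reads or more 29.6% were lower, and among the unnamed ones of 20 to 24 nt 41.7%. The let-7 family, whose members are late developmental regulators that repress RAS and LIN28 genes, had 9 named hairpins, of which 0 were called, with log2 ratios from -1.13 to 0.48. MIRLET7A1 had 24740, 30415 and 13824 reads in Dox and 13262, 19060 and 18543 in water, which overlap. Of the 6 hairpins of the miR-30 family only 2 could be named, MIR30E and MIR30C1 in an intron of NFYC, so the family as a whole is not described here. Both fell, with log2 ratios of -2.66 ± 0.92 and -2.49 ± 0.84 (SD, n = 3 pairs; edgeR adjusted p = 0.0122 and 0.0135; without pair 2, 0.182 and 0.175; under TMM, 0.053 and 0.0614; MIR30E without pair 1, 0.0545).

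In the cluster around MIR532 and MIR500A on the X chromosome 6 of 7 named hairpins fell, and in the imprinted chromosome 14 cluster of MEG8 and its neighbours 9 of 14. MIR532, the most abundant of the X group, had 10756, 3792 and 2862 reads in the Dox samples, against 43322, 38178 and 35561 in the water samples, a log2 ratio of -2.90 ± 0.96 (edgeR adjusted p = 0.00537; without pair 2, 0.159). Of the miR-15/16 family 3 of 6 named hairpins fell, of the miR-181 family 2 of 4, and of the miR-232724 clusters 1 of 6. With so few members these shares are not told apart from that of all named hairpins, and no difference between families was tested. None of these lists held a hairpin that rose. In the miR-183 cluster and the cluster of MIR99B and MIR125A, with 3 named hairpins each, 0 were called. Neither MIR221 nor MIR222 met the conditions for a name.

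Of the 4 hairpins listed as erythroid markers 2 were named, of which MIR210 fell, with the values given above. The other, MIR144, had 673, 1035 and 3999 reads in Dox and 1381, 1648 and 8153 in water and was not called (edgeR adjusted p = 0.378). MIR142 and MIR223, markers of other blood cells, were present and not called; MIR223 had 15687, 25011 and 27403 reads in Dox and 19076, 21540 and 43973 in water. Of the 10 marker hairpins listed for other tissues, only these 2 met the conditions for a name.

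A small group of hairpins was more abundant with Dox, and several of them lie at the ends of introns. In 6 named hairpins with at least 100 water reads an arm ends within 3 nt of an annotated intron end (GENCODE v29); 4 of them rose, 0 fell and 2 did not pass. Of the 200 other named hairpins with at least 100 water reads, 6 rose, 110 fell and 84 did not pass. With a minimum of 200 water reads the counts were 2 risen of 3 at an intron end, and 6 risen and 109 fallen of 194 others. A name by a single arm needed 200 reads, counted over all samples with the Dox ones included. MIR6798, MIR6777 and MIR6505 had fewer than 200 water reads and could thus be named through their Dox reads, so their direction is given as a description only. This grouping was made after the values had been seen.

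MIR877 (chr6:30552093-30552197), a mirtron that fills an intron of ABCF1 of 86 nt, had 5515, 15598 and 6545 reads in the Dox samples, against 444, 536 and 654 in the water samples. Its log2 ratio was 4.03 ± 1.04 (SD, n = 3 pairs; edgeR adjusted p = 6.37e-05). MIR1226 (chr3:47891045-47891123), which fills an intron of DHX30 of 75 nt, had 1066, 2582 and 1217 reads in Dox and 122, 128 and 304 in water, a log2 ratio of 3.24 ± 1.41 (edgeR adjusted p = 0.000957). In both mirtrons every Dox sample was above every water sample.

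MIR6798 ends at the 3′ end of an intron of RUVBL2 of 90 nt. It had 256, 520 and 468 reads in the Dox samples and 40, 51 and 71 in the water samples, with a log2 ratio of 3.00 ± 0.59 (SD, n = 3 pairs; edgeR adjusted p = 0.00178). MIR6777, at the 3′ end of an intron of SREBF1 of 89 nt, had 129, 239 and 268 reads in Dox and 29, 41 and 30 in water, with a log2 ratio of 2.69 ± 0.39 (edgeR adjusted p = 0.00587). MIR6505 and MIR6515, at intron ends of PFKM and CALR, were above 0 in all 3 pairs and did not pass, with log2 ratios of 1.29 and 0.87.

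The remaining 8 hairpins at intron ends had under 100 water reads and are named as a description only. MIR6738, in ARHGEF2, is one of them, with 128, 297 and 50 reads in Dox and 21, 14 and 6 in water. All 14 of the 3p arms at intron ends finish in AG, as in the sequences above, against 10 of 180 3p arms of the other named hairpins; AG closes nearly every human intron, so this follows from where these arms lie. Without pair 2 the adjusted p of MIR877, MIR1226, MIR6798 and MIR6777 was 0.0528, 0.124, 0.111 and 0.129, so that none passed, and without pair 3 that of MIR6777 was 0.0931.

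The other rises with at least 100 water reads were not at intron ends. MIR484 (chr16:15737139-15737185), in NDE1, known to be made from a capped precursor without Drosha, had 6363, 27804 and 26895 reads in the Dox samples and 1996, 3058 and 4296 in the water samples. Its log2 ratio was 2.59 ± 0.86 (SD, n = 3 pairs; edgeR adjusted p = 0.0091). MIR7706 (chr15:85923865-85923895) was the 1 named hairpin that begins within 10 nt of an annotated transcript start, that of AKAP13. It had 1147, 1522 and 1048 reads in Dox and 134, 105 and 72 in water, a log2 ratio of 3.69 ± 0.48 (edgeR adjusted p = 0.000105).

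MIR320B1, a member of the miR-320 family, had 4792, 6370 and 3065 reads in the Dox samples and 1090, 1652 and 1205 in the water samples, with a log2 ratio of 1.90 ± 0.62 (SD, n = 3 pairs; edgeR adjusted p = 0.0345). MIR664A, which overlaps an H/ACA snoRNA, had 2566, 3875 and 2623 reads in Dox and 627, 535 and 1025 in water, with a log2 ratio of 2.17 ± 0.99 (edgeR adjusted p = 0.019). MIR1293, in LIMA1, had 1657, 2342 and 1626 reads in Dox and 380, 589 and 347 in water, with a log2 ratio of 2.2 ± 0.13 (edgeR adjusted p = 0.0143). In all 5 of these hairpins the groups did not overlap. The last of the 6 other rises, MIR516B1 in the primate-specific chromosome 19 cluster, had 5.86, 10.2 and 15.6 RPM in Dox and 2.59, 2.45 and 3.71 RPM in water, with a log2 ratio of 1.77 ± 0.51 and an adjusted p just under the threshold (edgeR adjusted p = 0.0484; without pair 2, 0.312; without pair 3, 0.245). MIR516B2, which has the same main mature sequence (miR-516b-5p), had a log2 ratio of 1.56 and was not called. Of the other 5 rises, MIR7706 alone passed without pair 2, while MIR484 (0.228), MIR320B1 (0.301), MIR664A (0.305) and MIR1293 (0.168) did not. Nor did MIR320B1 without pair 1 (edgeR adjusted p = 0.124) or MIR1293 without pair 3 (0.0536). Of the list of hairpins known not to need Drosha, 3 of 6 were named, MIR877, MIR1226 and MIR484, and all 3 rose. Among all 206 named hairpins with at least 100 water reads 4.85% rose, and among all loci with 1000 reads or more 17.3%. Without pair 2 none of the 3 passed.

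Two-arm loci were also found by position alone, as stacks of 20 to 24 nt reads whose 5′ ends lie 30 to 48 nt apart on 1 strand. Of 265 such loci 102 fell and 18 rose, with a median log2 ratio of -0.84, -0.92 and -2.17 in the 3 pairs. The stacks were found on the reads of all samples with no water minimum, so a locus could enter through its Dox reads. Of the 142 without a microRNA name that had at least 100 water reads, 39 fell (27.5%) and 10 rose, with medians of 0.18, 0.24 and -1.61. Their share of falls is near the 29.6% of all loci with 1000 reads or more, so it is no result about them. Of the 116 with a name, 63 fell (54.3%) and 2 rose, with medians of -1.55, -1.74 and -2.85; the difference between the 2 sets was not tested. The unnamed set holds every two-arm locus of chromosome 8, where no hairpin was named: 9 loci, of which 5 fell and 0 rose. Without pair 2, 31 two-arm loci fell and 2 rose, and without pair 3, 67 and 11.

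Some of the unnamed two-arm loci were abundant. The locus chr8:141742665-141742762 on the minus strand fell to 38828, 13513 and 10542 reads in the Dox samples, against 394769, 282629 and 177846 in the water samples (log2 ratio -3.85 ± 0.54, SD, n = 3 pairs; edgeR adjusted p = 0.00135). The locus chr7:5535463-5535527, also on the minus strand, fell to 685, 136 and 178 reads in Dox, against 24028, 15028 and 12539 in water (log2 ratio -5.93 ± 0.79; edgeR adjusted p = 2.7e-08). In both the groups were far apart, and without pair 2 the call of the chromosome 8 locus was lost (edgeR adjusted p = 0.148).

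Among the unnamed two-arm loci that rose, chr18:71816171-71816251 had 2732, 4604 and 3916 reads in the Dox samples and 217, 126 and 118 in the water samples (log2 ratio 4.72 ± 0.88; edgeR adjusted p = 1.97e-06). The locus chr15:83424749-83424823, singled out after its values were seen for its high level, had 95349, 116546 and 49148 reads in Dox and 11395, 9359 and 11199 in water (log2 ratio 3.04 ± 1.00; edgeR adjusted p = 0.00594). In neither did a Dox sample come near a water sample, but the call of the chromosome 15 locus was lost without pair 1 (0.0656) or pair 2 (0.224). The other 2 unnamed loci among the 5 largest rises, chr17:75085508-75085582 and chr19:804941-805041, had log2 ratios of 4.12 ± 1.01 and 3.64 ± 1.10; the chromosome 19 locus was not called without pair 2 (edgeR adjusted p = 0.0735).

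Small nucleolar RNAs gave no call. Of 42 named C/D snoRNAs and 14 H/ACA snoRNAs, edgeR called 0 higher and 0 lower, and 2 H/ACA snoRNAs had an unadjusted p below 0.05. DESeq2 also called 0, and TMM scaling gave 2 higher. Most of these snoRNAs had a main length of 25 nt or more. Of loci with 1000 reads or more, neither named nor hairpin-spaced, 0.99% were higher and 4.95% lower at 25 to 30 nt. At 31 nt or more, 0% were higher and 6.32% lower. Over all read numbers 28.3% and 36.5% of such loci were lower, but loci with few reads lean low in Dox. The 0 calls are thus near the shares of deep loci of like length and are no result about snoRNAs. The median log2 ratio of the C/D snoRNAs was 0.75, 1.36 and -1.72 in pairs 1 to 3, and that of the H/ACA snoRNAs 0.07, 0.86 and -1.97. SNORD69, among the most abundant, had 415289, 312101 and 13901 reads in the Dox samples and 269809, 147533 and 55811 in the water samples. The low snoRNA values of pair 3 move with the loss of long reads in Dox replicate 3 given above; the part of that loss in the snoRNA values was not tested.

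Read length and arm use varied between hairpins. Of 97 hairpins with enough reads, 31 had a shorter mean read in Dox in all 3 pairs and 8 a longer one. The reads of MIR15B averaged 21.5, 21.2 and 21.2 nt in the Dox samples and 21.9, 21.8 and 21.8 nt in the water samples. At MIR21 the 23 nt reads had log2 ratios of -1.84, -1.51 and -1.51 and the 21 nt reads -0.62, -0.67 and -0.44. The longer form was thus lower in Dox by more than the shorter one in every pair. All listed reads, those of MIR21 included, had -0.96, -0.68 and -1.63 at 23 nt and -0.25, -0.14 and 0.005 at 21 nt. This order is therefore not particular to MIR21. MIR146B went the other way, with a mean read longer in Dox by 0.20, 0.48 and 0.22 nt.

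Of 100 hairpins with at least 100 water reads on the rarer arm, that arm had a lower ratio than the more abundant one in all 3 pairs in 30, a higher one in 20, and mixed signs in 50. The median difference between the arms was -0.22 on the log2 scale. MIR142 had an unlike pair of arms: its 3p arm had log2 ratios of -1.60, -1.49 and -2.08, and its 5p arm 0.23, 0.40 and -0.93. At MIR25 the rarer 5p arm was lower than the 3p arm, with log2 ratios of -3.64, -4.36 and -5.47 against -2.59, -2.84 and -4.21. MIR142 and MIR25 were singled out after their values were seen, and no test was made of arm use.

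Outside the hairpins, the largest changes were short stacks of reads without a name. Of the 10 largest rises among loci with at least 100 reads, 8 had under 100 reads over the water samples and met the minimum through their Dox reads, so nothing is read from their size or length. The highest with over 1000 reads in a sample was chr12:46582194-46582216 on the minus strand, with 1124, 1991 and 1947 reads in the Dox samples and 77, 72 and 26 in the water samples. The 10 largest falls had 0 reads in all 3 Dox samples, so their ratios are no measure of size; one of them, chr4:177099975-177099994, had 83, 254 and 510 reads in water.

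A single locus of 20 nt reads on chromosome 10 (chr10:69524343-69524374) took a large part of the Dox libraries, 0.859%, 8.1% and 27.8% of replicates 1 to 3, against 0.262%, 2.61% and 4.02% of the water libraries. Its log2 ratio of 2.04 ± 0.64 was above 0 in every pair and did not pass (edgeR adjusted p = 0.167); it passed without pair 3 (0.0246), among loci with at least 100 reads (0.0375), by limma (0.0357) and by DESeq2 (0.00119). All ratios given here are relative to the library total, which includes this locus. Another 20 nt locus, chr10:63882018-63882042 on the minus strand, fell to 90316, 27867 and 59007 reads in Dox, against 935892, 855575 and 378072 in water (log2 ratio -3.57 ± 0.93; edgeR adjusted p = 0.00595; without pair 1, 0.0881, and without pair 2, 0.286).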

How the data were processed

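Small RNA reads of 3 Dox and 3 water samples of K562 at 13 d were compared. The submitters' processing notes name Bowtie2 2.2.9 and the human build hg19 (GRCh37); the treatment of reads that match several places is not stated there. Each deposited table lists distinct alignments with read counts of both samples, RPKM values and the authors' ratio of Dox to water RPKM. The library total follows from the deposited RPKM and counts. The authors' deposited ratio column was compared with the RPKM columns and not used further. Alignments without a water read are not listed.

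Alignments of 18 nt or longer that overlap or touch on 1 strand were summed to 1141550 loci, of which the 44524 with at least 20 reads over the 6 samples were tested. The test was edgeR 4.0.16 (estimateDisp, glmQLFit, glmQLFTest; R 4.3.3) on the counts, with the replicate number as a block, library totals as offsets and Benjamini-Hochberg adjustment at 0.05; it was tested on simulated data. Pair ratios used a pseudocount of 0.5 reads. Reads from the DROSHA site gave the Dox side of the tables. P-values measure the spread of the Dox-to-water difference over the replicate pairs of 1 cell line, after the block has removed the level of each replicate. Intervals for counting error were not computed. Same-numbered Dox and water samples deviated together, with Pearson r of 0.439, 0.341 and 0.566 over 11294 loci, against -0.484 to 0.115 for other pairs. Each table lists only alignments read in its own water sample, so same-numbered samples deviate together in part by construction. These values therefore cannot show that the numbers pair the samples, and the pairing rests on how the tables were deposited.

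No hg19 annotation was used here, and no coordinate was converted. A hairpin was named where the distance between the 5′ ends of its arms matched RefSeq (GRCh38.p14) within 1 nt and another named hairpin or a snoRNA (GENCODE v29) lay at the distance the annotation gives. A single arm needed at least 200 reads over the 6 samples, Dox and water together (1000 by a snoRNA alone). A two-arm hairpin with at least 10000 reads and no such neighbour needed the exact spacing and at least 1000 reads on each arm. Its name and place also had to be unique and away from named snoRNAs. Its shift between the builds had to be near that of a named locus of its chromosome. This gave 220 of 1736 microRNA genes, 107 of them by both arms. Names that matched more than 1 place, 13 in number, were not withheld and are less certain. Each such name went to the place with most neighbours at matching distances, then most reads. Chromosome 8 has no names here. Reads of identical copies cannot be told apart, and how they were assigned to the copies is not stated. Copies had near-equal but not identical counts: miR-26a-5p had 596615 water reads at MIR26A1 and 596888 at MIR26A2. In all, 17 mature sequences are shared by 37 of the hairpins, and 200 are distinct. This naming replaces the planned one by hg19 annotation; Y, vault, transfer and other RNA classes were not analysed here.

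Loci named in the text are the DROSHA site, the 10 largest rises and falls among called loci with at least 100 reads and 1 direction in all pairs, the 20 two-arm loci with most water reads, the 5 largest two-arm rises and falls, and the microRNA families listed; others are said to be singled out or are examples of a class. The members and lists were chosen with earlier results of these data known. Alternatives were no block, TMM and DESeq2 size factors, DESeq2 1.42.0, limma 3.58.1 on log2 RPKM-scaled values (pseudocount 1), a minimum of 100 reads or none, leaving out each pair, alignments listed in all 3 tables and alignments of 20 to 24 nt; the last with TMM, TMM medians of classes, and the restriction of hairpin counts to those with at least 100 water reads were added after seeing the data. Tables were read with Python 3.11.15, pandas 2.3.3 and numpy 2.4.6.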

Additional observations from a re-analysis of the deposited data

How the results depend on the processing

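Calls changed more than signs did. The called loci were chosen on these same samples, so that they kept their sign is largely fixed in advance and is no independent support. Of the 12221 loci called, 12212 kept their sign without the replicate block, where edgeR called 0 higher and 0 lower, 0 of the two-arm loci, 0 of the 206 named hairpins with at least 100 water reads (the set used throughout here) and 0 of those at an intron end; the block is the paired fit, and the named hairpins called kept their sign in 120 of 120 cases. Loci called lower numbered 10928, and 5274 under TMM factors, 5273 under DESeq2 size factors, 6228 by the DESeq2 Wald test, 3190 with at least 100 reads, 5693 on alignments listed in all 3 tables, 3393 on alignments of 20 to 24 nt and 2185 on these with TMM. Loci called higher numbered 1293, and 577 on alignments of 20 to 24 nt. With no filter 377 loci were higher and 1507 lower, 9 and 53 of the two-arm loci, 4 and 45 of the named hairpins, and 3 of those at an intron end; this alternative adjusts over 1141550 loci.

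Leaving out each pair in turn gave 111 to 1510 loci higher and 838 to 8910 lower, 2 to 18 and 31 to 91 of the two-arm loci, 1 to 9 and 29 to 98 of the named hairpins, 0 to 4 of the 6 hairpins at an intron end, and 0 to 1 snoRNA higher. Higher two-arm loci numbered 18, and 30 on alignments of 20 to 24 nt and 52 on these with TMM. The 10 higher named hairpins became 16 on alignments of 20 to 24 nt with TMM. The 0 higher snoRNAs became 2 under TMM, 2 under DESeq2 size factors, 2 on 20 to 24 nt alignments and 10 on these with TMM, and the 0 lower ones 2 on alignments listed in all 3 tables, 1 on 20 to 24 nt alignments and 1 on these with TMM. Under TMM the median log2 ratio of hairpins at an intron end was 3.45, against 2.84, and that of all loci -0.94, against -1.54. The causes were not tested, apart from the number of loci or samples an alternative leaves.

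Of single hairpins that were not called, MIR148A turned to 0.21 under TMM, 0.19 under size factors and 0.016 on 20 to 24 nt alignments with TMM, MIR146B to 0.051 and 0.029 under TMM and size factors, and MIR223 to 0.44, 0.43 and 0.38 under TMM, size factors and 20 to 24 nt alignments with TMM. Leaving out each pair in turn, MIR126 ran from -0.14 (without pair 1) to 0.36, MIR125A from -0.073 (without pair 2) to 0.86, MIR17 from -1.28 to 0.073 (without pair 3), MIR20A from -1.58 to 0.098 (without pair 3) and MIR223 from -0.51 to 0.18 (without pair 3). A locus with few reads is limited by counting and by the missing Dox-only alignments, and a fall to 0 Dox reads gives no size.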

Other observations

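Named hairpins that share their main mature sequence form 17 groups. Reads of such copies cannot be told apart, so copies are not independent. In 7 groups every hairpin was called lower, in 7 none was called and in 3 the calls were mixed; the let-7a copies, for example, had log2 ratios from 0.47 to 0.48 and the miR-26a copies from -0.86 to -0.84, without a call. The following examples are from those that fell. Both hairpins of miR-196a, a microRNA embedded in the HOX clusters that represses HOX genes, were called lower: MIR196A1 had 131, 120 and 71 reads in the Dox samples and 965, 810 and 1497 in the water samples, a log2 ratio of -3.25 ± 1.14 (SD, n = 3 pairs; edgeR adjusted p = 0.000822). All 3 hairpins of miR-9, best known from neurons, were lower; MIR9-1 had 4084, 1370 and 806 reads in Dox and 9607, 7402 and 9877 in water, and its call (edgeR adjusted p = 0.0174) was lost without pair 2 (0.186), without pair 3 (0.124) and under TMM (0.0807). The 4 named copies of MIR3180 on chromosome 16 had mean log2 ratios from -4.75 to -4.11, and MIR3180-1 had 26, 38 and 30 reads in Dox and 484, 969 and 636 in water.

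Of the miR-378 group, in which MIR378A lies in the metabolic gene PPARGC1B, 3 named hairpins with 1 seed were called lower; MIR378A had 27475, 15825 and 17068 reads in Dox and 105422, 67082 and 106768 in water (log2 ratio -2.13 ± 0.59; edgeR adjusted p = 0.0395; without pair 1, 0.144; without pair 2, 0.299; under TMM, 0.155). These hairpins were singled out after their values were seen.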
